A study of Homo sapiens with 6 samples.

Results

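The proteasome is the protease complex that degrades most ubiquitin-tagged proteins, and its genes share the symbols PSMA to PSMG followed by a number. Every gene of the deposited table whose symbol had that form was taken, which gave 46 genes, out of 11078 symbols with a row. All 46 had a mean of at least 1 FPKM (fragments per kilobase of transcript, scaled to library size) over the 6 libraries and were among the 10008 genes tested. Of these 46, the 5 immunoproteasome genes PSMB8, PSMB9, PSMB10, PSME1 and PSME2 were set against the other 41. PSMA8, the testis form of an alpha subunit, and PSMB11, the thymus catalytic subunit, were not analysed here.

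The study asked what loss of BLACAT3, a transcript of the long noncoding RNA gene LINC01535, does to gene expression in T24 cells, an established line of human bladder cancer. One line (shBLACAT3, 3 libraries) carried a short hairpin RNA directed against BLACAT3, and the other (shControl, 3 libraries) a control hairpin. Both hairpins were delivered by lentivirus, both lines were puromycin-selected stable strains of 1 cell line grown in RPMI 1640 with fetal bovine serum, and the number of hairpin sequences is not given in the labels. The labels do not say that the replicates were separate cultures, so the p-values below describe how far these libraries differ from each other, and part of that may be technical.

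A proteasome has a barrel-shaped 20S core of stacked alpha and beta rings and, in the 26S form, a 19S cap that binds ubiquitin chains, unfolds the substrate with its ATPases and feeds it into the barrel. In most cells the cutting sites are formed by PSMB5, PSMB6 and PSMB7. Interferons, and above all interferon gamma, induce PSMB8, PSMB9 and PSMB10, which replace them during assembly of new barrels to give the immunoproteasome, together with PSME1 and PSME2, which form an 11S cap that opens the barrel without ATP. Immunoproteasomes yield peptides that suit MHC class I molecules, and they are abundant in blood-derived cells and inducible in epithelial cells.

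The listed values summed to between 211958 and 226953 FPKM per library, with 43 to 65 genes listed at 0 in shBLACAT3 libraries and 17 to 19 in shControl libraries. The depth in reads is unknown. The targeted RNA was not analysed here, so the labels were not checked against it. Of 15 epithelial and urothelial markers 5 had a row (KRT7, KRT8, KRT18, PPARG and FOXA1), and their FPKM summed to between 124 and 142 in shBLACAT3 libraries and between 180 and 211 in shControl libraries. The lower sum came from KRT8 and KRT18, which were called, at log2 fold changes of -1.42 and -0.58 (limma, adjusted p = 0.000389 and 0.0222). KRT7 and PPARG went the other way, with every shBLACAT3 value above every shControl value and log2 fold changes of 0.69 and 0.26, and FOXA1 had -0.29, but none of the 3 was called (limma adjusted p = 0.0967, 0.145 and 0.0989). KRT18 missed the threshold when shBLACAT3 replicate 1 or 2 or shControl replicate 1 or 3 was left out, with adjusted p between 0.0534 and 0.0922. Of 15 leukocyte markers only CD68 had a row, at 0.489, 0.00379 and 0.624 FPKM in shBLACAT3 libraries and 1.21, 1.205 and 0.686 FPKM in shControl libraries. The pan-leukocyte marker PTPRC had no row, nor had any of 6 endothelial markers. The part of these marker differences in the results below was not tested.

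The knockdown libraries held less RNA of the immune catalytic subunits, while no constitutive catalytic subunit, no other gene of the 20S core and no subunit of the 19S cap was called. PSMB9 stood at 26.0% of its shControl mean, PSMB8 at 53.2% and PSMB10 at 75.6%. Among the genes that were not called, PSMB2 and PSMA6 of the core stood lowest, at 77.6% and 79.9%, and PSMD12 of the cap highest, at 121%. Among the 46 only PSMB9, PSMB8, PSMB10 and PSMD10, a chaperone of cap assembly, passed the threshold of 0.05 on adjusted p (limma on log2(FPKM + 1), Benjamini-Hochberg adjustment over all 10008 genes tested). All 4 were lower in shBLACAT3 libraries and 0 were higher, with 0 higher at an adjusted p under the threshold in any of the other 14 settings tried as well. Over all genes tested 938 were called (9.37%), 681 of them lower (6.8%) and 257 higher (2.57%). In bulk RNA, fewer cells that make a transcript and less of it per cell cannot be told apart.

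**Figure D1:**
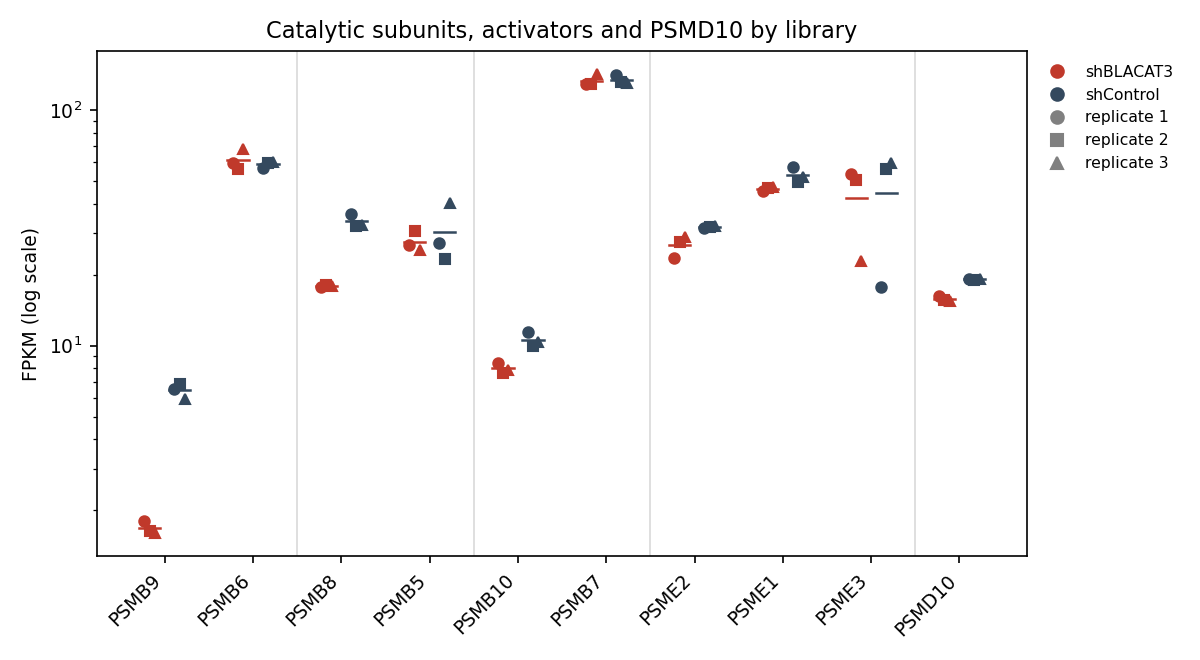
FPKM on a log axis of the immune and constitutive catalytic subunits, the activators PSME1, PSME2 and PSME3, and PSMD10, with 1 point for each library (shape by replicate number), the shBLACAT3 libraries left of the shControl libraries and a bar at each group mean. The groups are apart for PSMB9 (means of 1.68 and 6.46 FPKM), PSMB8 (17.9 and 33.7 FPKM), PSMB10, PSME1, PSME2 and PSMD10, and overlap for PSMB5, PSMB6, PSMB7 and PSME3.

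The promoter windows of the immunoproteasome genes are shown because interferon acts on such genes through short DNA elements. Every shBLACAT3 value of the 5 genes lay under every shControl value, an order that 18.7% of all genes tested had. PSME1 and PSME2 were not called. The windows come from RefSeq on GRCh38.p14 and run from 250 bases before to 50 bases after the annotated start, 5′ to 3′ on the gene's strand, and the build of the authors' files is not given in the sources used here. Capitals mark the core letters of the interferon-stimulated response element (ISRE, the element bound by interferon regulatory factors), searched as GAAANNGAAA on both strands, so that a match on the other strand reads as its complement. PSMB9 lies at chr6:32853942-32854241 on the plus strand, PSMB8 at chr6:32843998-32844297 on the minus strand, PSMB10 at chr16:67936801-67937100 on the minus strand, PSME1 at chr14:24135944-24136243 on the plus strand and PSME2 at chr14:24146561-24146860 on the minus strand.
PSMB9: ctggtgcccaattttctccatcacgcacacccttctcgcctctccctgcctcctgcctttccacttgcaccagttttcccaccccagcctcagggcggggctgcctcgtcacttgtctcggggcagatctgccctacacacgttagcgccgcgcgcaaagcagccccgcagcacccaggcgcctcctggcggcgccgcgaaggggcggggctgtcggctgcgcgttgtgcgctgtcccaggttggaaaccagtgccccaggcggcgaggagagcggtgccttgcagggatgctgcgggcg
PSMB8: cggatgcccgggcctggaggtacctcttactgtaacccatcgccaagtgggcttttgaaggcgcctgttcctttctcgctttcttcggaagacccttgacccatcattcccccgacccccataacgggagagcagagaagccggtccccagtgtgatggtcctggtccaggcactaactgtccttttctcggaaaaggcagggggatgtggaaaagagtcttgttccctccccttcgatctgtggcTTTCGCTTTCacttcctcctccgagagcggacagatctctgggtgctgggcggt
PSMB10: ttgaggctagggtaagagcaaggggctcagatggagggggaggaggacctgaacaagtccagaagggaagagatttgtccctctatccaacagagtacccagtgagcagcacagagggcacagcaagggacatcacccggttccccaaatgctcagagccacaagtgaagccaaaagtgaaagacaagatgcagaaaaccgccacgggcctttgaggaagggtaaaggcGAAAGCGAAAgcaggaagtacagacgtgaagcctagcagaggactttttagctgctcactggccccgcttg
PSME1: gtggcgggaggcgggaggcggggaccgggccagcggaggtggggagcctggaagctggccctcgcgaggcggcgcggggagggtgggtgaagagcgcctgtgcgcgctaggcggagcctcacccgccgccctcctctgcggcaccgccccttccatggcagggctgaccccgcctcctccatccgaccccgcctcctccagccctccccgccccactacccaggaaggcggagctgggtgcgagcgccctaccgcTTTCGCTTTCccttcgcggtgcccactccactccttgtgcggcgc
PSME2: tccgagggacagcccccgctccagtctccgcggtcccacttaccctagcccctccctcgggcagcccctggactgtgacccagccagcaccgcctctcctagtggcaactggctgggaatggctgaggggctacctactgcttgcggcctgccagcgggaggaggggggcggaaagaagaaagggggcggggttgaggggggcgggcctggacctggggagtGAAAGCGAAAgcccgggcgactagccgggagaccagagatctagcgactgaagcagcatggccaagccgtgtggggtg

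The ISRE core letters stood in the windows of 4 of the 5 immunoproteasome genes, all but PSMB9. In PSMB8 they lay on the minus strand of the gene from base -4 to base 6 around the start, and in PSME1 on the minus strand from base 6 to base 15. In PSMB10 they lay from base -21 to base -12 and in PSME2 from base -28 to base -19, both on the plus strand. RefSeq gives PSMB8 another start, whose window at chr6:32844630-32844929 did not hold the letters. Of the other 41 genes 35 had a window, and 3 of these held the core (PSMA4, PSMB4 and PSMG4). PSMA7, PSMB1, PSMB6, PSMB7, PSMD4 and PSMG3 had none. Among all 27305 genes with a window 1195 held the core (4.38%), in 1255 of 35116 windows (3.57%).

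The 4 immunoproteasome windows shared the same letters between the AAA runs, GAAAGCGAAA, a spelling that was chosen after the windows had been read. It stood in the windows of 34 of all 27305 genes (0.125%), in 35 of 35116 windows (0.0997%). One of them belonged to PSMG4, which encodes a chaperone of alpha ring assembly and whose window is shown to set a gene with those letters but with no called difference beside them. PSMG4 lies at chr6:3258697-3258996 on the plus strand, with the letters from base -33 to base -24, and stood at 1.10, 1.15 and 1.17 FPKM in shBLACAT3 libraries, against 1.08, 1.25 and 1.21 FPKM in shControl libraries. Its groups overlapped.
PSMG4: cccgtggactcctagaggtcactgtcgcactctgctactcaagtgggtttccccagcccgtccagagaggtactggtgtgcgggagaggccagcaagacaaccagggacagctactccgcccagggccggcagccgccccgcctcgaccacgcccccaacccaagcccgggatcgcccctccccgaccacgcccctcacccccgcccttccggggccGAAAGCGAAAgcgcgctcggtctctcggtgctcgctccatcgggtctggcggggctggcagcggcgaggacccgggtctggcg

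PSMB9 starts head to head with TAP1, a chain of the transporter that carries proteasome products into the endoplasmic reticulum. The start of TAP1 nearest to PSMB9 lies 488 bases from the PSMB9 start, and the TAP1 window, at chr6:32853655-32853954 on the minus strand, shares 13 bases with that of PSMB9. The TAP1 window holds the core letters in an overlapping pair, from base -134 to base -125 and from base -128 to base -119, both on the minus strand of TAP1. On the chromosome the pair lies between 369 and 354 bases upstream of the PSMB9 start, outside the PSMB9 window.
TAP1: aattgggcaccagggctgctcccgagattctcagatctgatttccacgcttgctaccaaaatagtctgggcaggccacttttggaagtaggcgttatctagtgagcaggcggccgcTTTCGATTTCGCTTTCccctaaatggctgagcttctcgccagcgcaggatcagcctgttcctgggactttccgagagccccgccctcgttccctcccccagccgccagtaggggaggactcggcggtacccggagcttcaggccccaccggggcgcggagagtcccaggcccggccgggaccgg

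The gamma-activated site (GAS, an element of the interferon gamma response), searched as TTCNNNGAA, a palindromic pattern, stood in the window of 1 of the 5 immunoproteasome genes (PSMB8, from base -65 to base -57) and in 6 of the 35 others, where 2560 of all 27305 genes with a window (9.38%) held it and 2689 of 35116 windows (7.66%) did. These matches describe letters in fixed windows, and no binding was measured.

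PSMB9, the beta1i subunit that replaces PSMB6, stood at 1.80, 1.64 and 1.60 FPKM in shBLACAT3 libraries, against 6.58, 6.89 and 5.92 FPKM in shControl libraries. Every shControl value lay far above every shBLACAT3 value. The means were 1.68 ± 0.11 and 6.46 ± 0.495 FPKM (SD, n = 3 each), a ratio of 3.85 times lower. On the log2(FPKM + 1) scale, which understates the change of a gene this low, the log2 fold change was -1.48 (SE 0.0851, 95% interval -1.68 to -1.27, limma adjusted p = 0.000207). It ranked 52 from the lowest among the fold changes of the 10008 genes.

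PSMB8, the beta5i subunit that replaces PSMB5 and carries the chymotrypsin-like activity, stood at 17.8, 18.1 and 17.8 FPKM in shBLACAT3 libraries, against 36.1, 32.3 and 32.5 FPKM in shControl libraries. The 3 knockdown libraries lay close to each other and far under the lowest control. The means were 17.9 ± 0.181 and 33.7 ± 2.14 FPKM (SD, n = 3 each), with a log2 fold change of -0.87 (SE 0.0645, 95% interval -1.03 to -0.72, limma adjusted p = 0.00058). Among the immune catalytic genes PSMB8 had the highest level, and PSMB9 the lowest, in every library.

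PSMB10, the beta2i subunit that replaces PSMB7, stood at 8.46, 7.64 and 7.92 FPKM in shBLACAT3 libraries, against 11.4, 9.98 and 10.4 FPKM in shControl libraries. The groups were apart by a smaller margin than for the other immune subunits. The means were 8.01 ± 0.417 and 10.6 ± 0.76 FPKM (SD, n = 3 each), with a log2 fold change of -0.36 (SE 0.0789, 95% interval -0.55 to -0.18, limma adjusted p = 0.0361). The call was lost when any 1 of the 6 libraries was left out, with limma adjusted p between 0.0573 and 0.139. The log2 fold change then stayed between -0.40 and -0.31.

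The immune partners at the gate of the barrel, PSME1 (PA28 alpha) and PSME2 (PA28 beta), did not pass the threshold. PSME1 stood at 45.3, 46.6 and 47.0 FPKM in shBLACAT3 libraries, against 57.3, 49.4 and 51.9 FPKM in shControl libraries. PSME2 stood at 23.5, 27.5 and 29.03 FPKM in shBLACAT3 libraries, against 31.7, 32.0 and 32.1 FPKM in shControl libraries. Every shBLACAT3 value of both genes lay under every shControl value, with log2 fold changes of -0.19 (SE 0.0685, 95% interval -0.35 to -0.02, limma adjusted p = 0.152) for PSME1 and -0.25 (SE 0.084, 95% interval -0.46 to -0.05, limma adjusted p = 0.119) for PSME2. All 5 immunoproteasome genes had groups that did not overlap, with shBLACAT3 lower, where 1867 of 10008 genes (18.7%) had that order. Their median log2 fold change was -0.36, beside -0.0191 over the other 41 and -0.0025 over all genes tested.

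The constitutive catalytic subunits were not called. PSMB5, the chymotrypsin-like subunit, stood at 26.8, 30.7 and 25.4 FPKM in shBLACAT3 libraries, against 27.2, 23.3 and 40.2 FPKM in shControl libraries, with shControl replicate 3 far above the other libraries. PSMB6, the caspase-like subunit, stood at 59.5, 56.2 and 68.4 FPKM in shBLACAT3 libraries and at 56.9, 59.6 and 60.0 FPKM in shControl libraries. PSMB7, the trypsin-like subunit, stood at 129, 129 and 143 FPKM in shBLACAT3 libraries and at 141, 132 and 130.2 FPKM in shControl libraries. The groups overlapped for all 3, at log2 fold changes of -0.09 (95% interval -0.55 to 0.37), 0.05 (-0.14 to 0.25) and -0.01 (-0.17 to 0.14), with limma adjusted p of 0.804, 0.715 and 0.937. The sign of each of the 3 turned when single libraries were left out.

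The balance within each catalytic pair was taken from the same libraries, since FPKM is scaled by transcript length and an immune subunit and its counterpart compete for the same site in the barrel. The RNA share of PSMB8 in PSMB8 plus PSMB5 was 39.9, 37.2 and 41.3% in shBLACAT3 libraries, against 57.1, 58.2 and 44.7% in shControl libraries. The share of PSMB9 in PSMB9 plus PSMB6 was 2.95, 2.83 and 2.28% in shBLACAT3 libraries, against 10.4, 10.4 and 8.97% in shControl libraries. The share of PSMB10 in PSMB10 plus PSMB7 was 6.16, 5.61 and 5.26% in shBLACAT3 libraries, against 7.51, 7.05 and 7.37% in shControl libraries. All 3 shBLACAT3 libraries lay under all 3 shControl libraries in each pair, although the lowest control share for PSMB8 was only a few points above the highest knockdown share.

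The log2 ratio of immune to constitutive subunit, from log2(FPKM + 1) values, averaged -0.59 ± 0.123 in shBLACAT3 libraries and 0.19 ± 0.42 in shControl libraries for PSMB8 over PSMB5 (SD, n = 3 each), a difference of -0.78. For PSMB9 over PSMB6 it averaged -4.54 ± 0.176 in shBLACAT3 libraries and -3.01 ± 0.117 in shControl libraries, a difference of -1.53. For PSMB10 over PSMB7 it averaged -3.90 ± 0.115 in shBLACAT3 libraries and -3.55 ± 0.0435 in shControl libraries, a difference of -0.35. The two-sided exact permutation test gave p = 0.1 for each, 0.1 also after Benjamini-Hochberg adjustment over the 3 pairs, and 0.1 is the smallest p that 3 libraries against 3 can give, so these ratios could not pass the threshold.

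Summed over the 3 immune catalytic genes, the level was 28.1, 27.4 and 27.3 FPKM in shBLACAT3 libraries and 54.2, 49.2 and 48.8 FPKM in shControl libraries. The sum of the 3 constitutive catalytic genes was 222 ± 12.1 FPKM in shBLACAT3 libraries and 223 ± 8.11 FPKM in shControl libraries (SD, n = 3 each). The immune genes made up 11.1 ± 0.614% of the RNA of all 6 catalytic genes in shBLACAT3 libraries and 18.5 ± 0.963% in shControl libraries (SD, n = 3 each). Constitutive RNA was thus in excess in this sum in both lines. That did not hold at each site in each library, since PSMB8 made up 57.1 and 58.2% of PSMB8 plus PSMB5 in shControl replicates 1 and 2. It made up 44.7% in shControl replicate 3, where PSMB5 was far above the other libraries, and 39.9, 37.2 and 41.3% in shBLACAT3 libraries. The sum of PSME1 and PSME2 was 73.0 ± 3.74 FPKM in shBLACAT3 libraries and 84.8 ± 3.89 FPKM in shControl libraries.

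**Figure D2:**
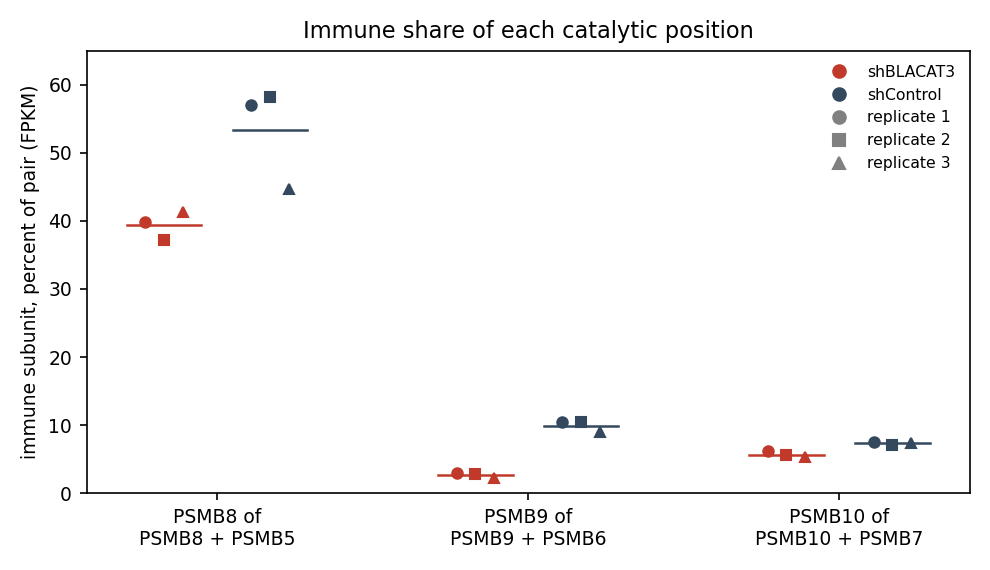
Percent of each catalytic pair's summed FPKM that came from the immune subunit, with 1 point for each library (shape by replicate number), the shBLACAT3 libraries left of the shControl libraries and a bar at each group mean. The shBLACAT3 points lie under the shControl points in each pair, with means of 39.4 and 53.3% for PSMB8, 2.69 and 9.9% for PSMB9, and 5.68 and 7.31% for PSMB10.

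The rest of the 20S core was not called. The 7 alpha subunits, which form the outer rings and the gate, had a median log2 fold change of -0.07, and their mean levels over the 6 libraries ran from 18.5 FPKM (PSMA6) to 207 FPKM (PSMA7). PSMA6 stood at 14.8, 20.1 and 14.5 FPKM in shBLACAT3 libraries, against 18.8, 21.9 and 20.9 FPKM in shControl libraries, with shBLACAT3 replicate 2 inside the control range. Its log2 fold change was -0.32 (SE 0.133, limma adjusted p = 0.194), and it passed the threshold without shBLACAT3 replicate 2 (-0.46, adjusted p = 0.0322). PSMA3 was the 1 alpha subunit whose groups did not overlap, at 38.8, 39.4 and 40.8 FPKM in shBLACAT3 libraries and 38.6, 38.5 and 36.9 FPKM in shControl libraries, a small margin (log2 fold change 0.06, limma adjusted p = 0.523).

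Of the 4 structural beta subunits, which hold no cutting site, PSMB1, PSMB3 and PSMB4 had log2 fold changes between -0.09 and 0.10. PSMB2 stood at 42.0, 37.8 and 46.8 FPKM in shBLACAT3 libraries, against 43.9, 58.2 and 61.1 FPKM in shControl libraries. Only shControl replicate 1 fell within the knockdown range, and the log2 fold change was -0.35 (SE 0.139, 95% interval -0.68 to -0.02, limma adjusted p = 0.179).

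In the 19S cap, none of the 6 ATPases PSMC1 to PSMC6 passed the threshold, and their log2 fold changes lay between -0.04 and 0.15. None of the 11 non-ATPase subunits passed it either. PSMD14, the deubiquitinase that removes ubiquitin chains at the entrance, stood at 41.2, 45.8 and 42.6 FPKM in shBLACAT3 libraries and 42.9, 43.8 and 42.8 FPKM in shControl libraries. PSMD1 and PSMD2, large scaffold subunits, had log2 fold changes of 0.0012 and 0.13 (limma adjusted p = 0.993 and 0.297), and PSMD4, a ubiquitin receptor, -0.05 (adjusted p = 0.757).

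The largest differences among the non-ATPase subunits ran in opposite directions in 2 scaffold subunits of the lid. PSMD12 stood at 38.0, 40.0 and 34.8 FPKM in shBLACAT3 libraries, against 30.3, 29.1 and 33.9 FPKM in shControl libraries (log2 fold change 0.27, SE 0.0825, limma adjusted p = 0.1). PSMD11 stood at 29.6, 37.9 and 38.1 FPKM in shBLACAT3 libraries, against 42.0, 39.9 and 43.3 FPKM in shControl libraries (log2 fold change -0.25, SE 0.105, limma adjusted p = 0.202). Neither passed the threshold, although the groups did not overlap for either. Over the 20 genes of the PSMC and PSMD names the median log2 fold change was 0.0001.

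PSMD10, also called gankyrin, binds the ATPase PSMC4 during assembly of the cap base and is known as an oncoprotein in liver cancer. It stood at 16.3, 15.5 and 15.5 FPKM in shBLACAT3 libraries, against 19.1, 19.1 and 19.2 FPKM in shControl libraries. The controls were nearly equal, and all 3 knockdown values lay under them. The means were 15.8 ± 0.458 and 19.1 ± 0.0416 FPKM (SD, n = 3 each), with a log2 fold change of -0.26 (SE 0.0563, 95% interval -0.40 to -0.13, limma adjusted p = 0.0352). This call too was lost when any 1 library was left out, with limma adjusted p between 0.0529 and 0.135. The log2 fold change of PSMD10 then stayed between -0.285 and -0.25. The other base chaperones were not called: PSMD9 stood at 4.05, 4.10 and 3.74 FPKM in shBLACAT3 libraries, above 3.59, 3.28 and 3.501 FPKM in shControl libraries (log2 fold change 0.16, limma adjusted p = 0.258), and the PSMD5 groups overlapped.

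Of the 4 chaperones that build the alpha ring, PSMG1 came closest to the threshold from above. It stood at 44.7, 44.6 and 45.4 FPKM in shBLACAT3 libraries, against 39.2, 40.2 and 37.9 FPKM in shControl libraries, so all 3 knockdown values lay above all controls. Its log2 fold change was 0.19 (SE 0.0517, 95% interval 0.07 to 0.32, limma adjusted p = 0.0679). PSMG2, its partner in a heterodimer, had a log2 fold change of -0.03 (limma adjusted p = 0.887). PSMG3, which pairs with PSMG4, stood at 13.5, 11.6 and 14.1 FPKM in shBLACAT3 libraries, against 11.3, 10.4 and 11.6 FPKM in shControl libraries (log2 fold change 0.21, limma adjusted p = 0.195).

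The remaining activators and the inhibitor varied within groups more than between them. PSME3 (PA28 gamma), the nuclear 11S activator, which is not part of the interferon-induced set, stood at 53.5, 50.3 and 22.9 FPKM in shBLACAT3 libraries and at 17.7, 56.0 and 59.4 FPKM in shControl libraries. One library in each group, shBLACAT3 replicate 3 and shControl replicate 1, lay far under the rest, and the standard error of 0.522 on the log2 scale was the largest of the 46. PSMF1 (PI31), named as an inhibitor of the core, stood at 25.8, 23.97 and 16.1 FPKM in shBLACAT3 libraries and 14.5, 18.3 and 28.6 FPKM in shControl libraries. The 95% intervals of the log2 fold change were -1.23 to 1.26 for PSME3 and -0.52 to 0.77 for PSMF1, too wide to tell a rise from a fall. PSME4 (PA200), an activator found in the nucleus, stood at 8.87, 8.75 and 7.57 FPKM in shBLACAT3 libraries and 8.52, 8.11 and 8.09 FPKM in shControl libraries.

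**Figure D3:**
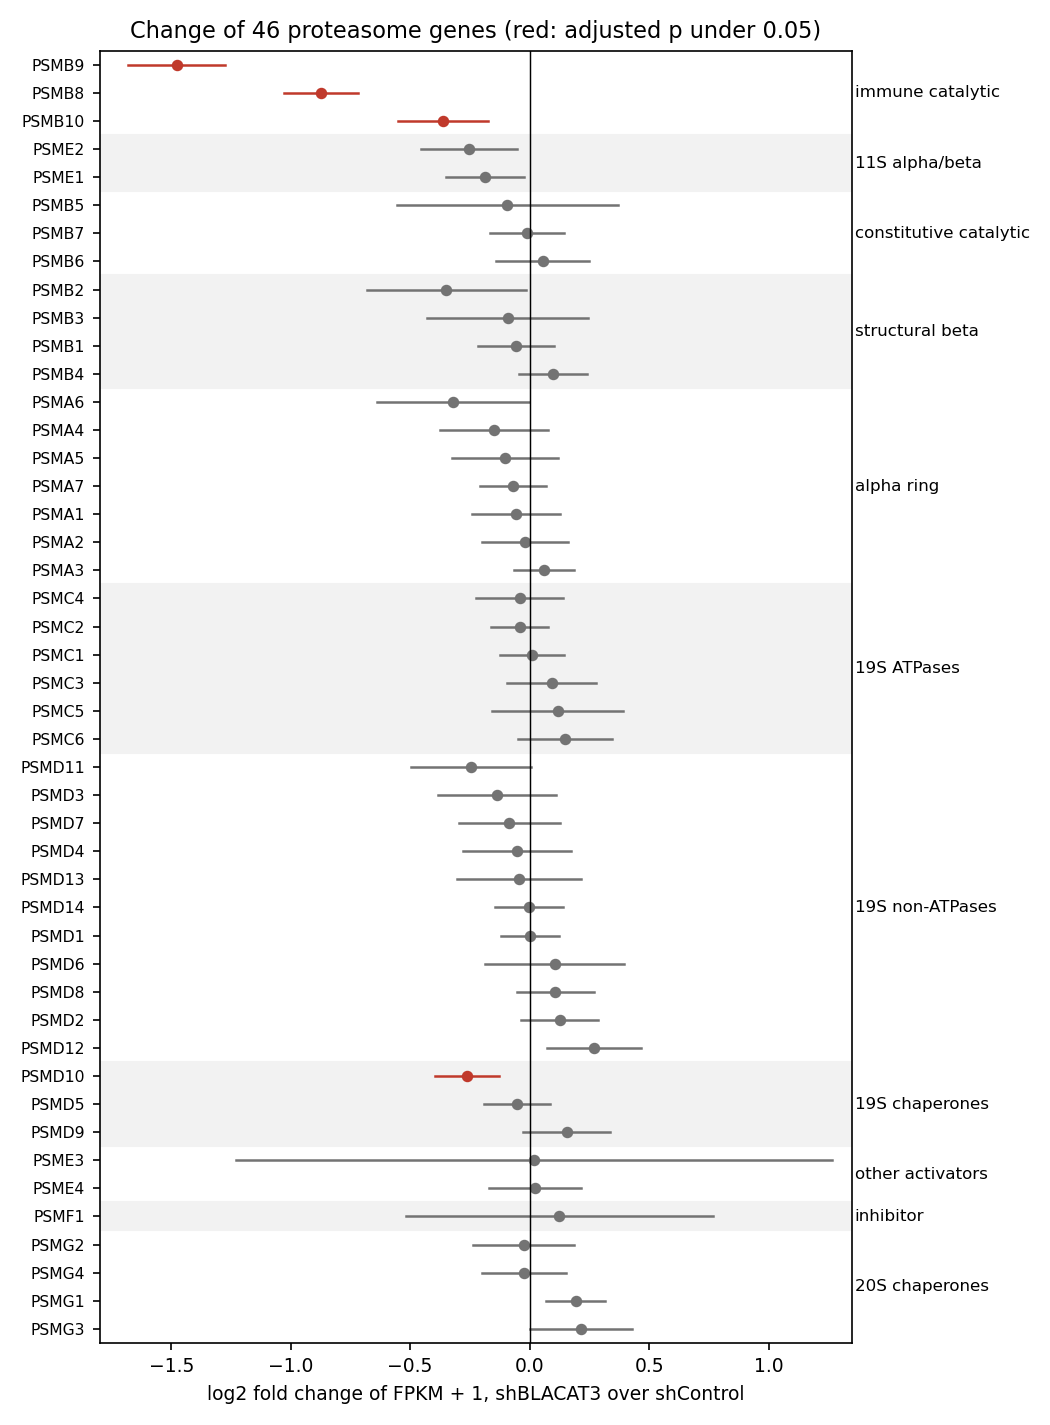
Log2 fold change (shBLACAT3 over shControl) of all 46 genes on the log2(FPKM + 1) scale, grouped by role, with 95% intervals from limma as lines and red points for adjusted p under 0.05. PSMB9 at -1.48, PSMB8 at -0.87, PSMB10 at -0.36 and PSMD10 at -0.26 are the red points, and the other 42 genes, in grey, were not called.

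Of the 41 genes outside the immune set, 1 was called, where 9.37% of all genes tested were. In 33 of the 41 the groups overlapped. The groups were apart with shBLACAT3 lower in 2 (PSMD10 and PSMD11) and with shBLACAT3 higher in 6 (PSMA3, PSMD12, PSMD2, PSMD9, PSMG1 and PSMG3), where 18.7% and 14.1% of all genes tested had those orders. Their log2 fold changes ran from -0.35 (PSMB2) to 0.27 (PSMD12). The summed level of the 41 was 1804 ± 56.2 FPKM in shBLACAT3 libraries and 1833 ± 37.4 FPKM in shControl libraries (SD, n = 3 each).

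Genes that work with the proteasome but carry other names were looked at from a list of 16, of which 1 was lower and 0 were higher, where 6.8% and 2.57% of all genes tested were, with a median log2 fold change of 0.0036. The 1 called gene was ZFAND2A, an arsenite-inducible protein that associates with the proteasome, at 2.11, 1.87 and 1.93 FPKM in shBLACAT3 libraries, against 3.16, 4.32 and 3.48 FPKM in shControl libraries. Its groups did not overlap, with a log2 fold change of -0.64 (SE 0.11, limma adjusted p = 0.0165), and it missed the threshold without shControl replicate 3 (adjusted p = 0.0591). POMP, the maturation factor that completes the barrel, ADRM1, a ubiquitin receptor of the cap, and SEM1, a small subunit of the lid, were picked with their values in view. Their log2 fold changes were 0.11, 0.02 and 0.20 (limma adjusted p = 0.295, 0.895 and 0.23).

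Transcriptional control of the constitutive genes is known to run through NFE2L1, a membrane-bound factor that is cut loose when proteasome activity drops and then raises subunit genes together. Of 11 tested genes of this list 1 was called, where 9.37% of all genes tested were. It was NFE2L3, a relative of NFE2L1, and it was lower. NFE2L3 stood at 7.14, 8.40 and 8.09 FPKM in shBLACAT3 libraries, against 15.3, 15.1 and 13.6 FPKM in shControl libraries. No knockdown value came near a control value, and the log2 fold change was -0.82 (SE 0.0852, limma adjusted p = 0.00231). NFE2L1 itself, named after its values were seen, stood at 12.6, 21.4 and 16.2 FPKM in shBLACAT3 libraries, against 25.5, 23.6 and 22.6 FPKM in shControl libraries (log2 fold change -0.52, SE 0.174, limma adjusted p = 0.124). Its groups did not overlap, but the knockdown libraries were widely spread.

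Of 15 tested regulators of the interferon response that act on immunoproteasome genes 2 were lower and 0 were higher, where 6.8% and 2.57% of all genes tested were, with a median log2 fold change of -0.15. IRF1, an interferon regulatory factor known to bind the promoters of immunoproteasome genes, stood at 3.02, 2.76 and 2.95 FPKM in shBLACAT3 libraries, against 5.96, 5.05 and 5.35 FPKM in shControl libraries. The groups were well apart, and the log2 fold change was -0.72 (SE 0.085, 95% interval -0.92 to -0.52, limma adjusted p = 0.00395). IRF7, a related factor induced by type I interferon, had a log2 fold change of -0.48 (SE 0.115, limma adjusted p = 0.0482) and lost the call without any 1 of the 6 libraries (adjusted p between 0.0545 and 0.158).

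IRF9, a factor that acts at the ISRE, was named after its values were seen. IRF9 stood at 4.39, 4.11 and 2.17 FPKM in shBLACAT3 libraries and 3.45, 6.57 and 6.68 FPKM in shControl libraries, with overlap (log2 fold change -0.52, limma adjusted p = 0.299). NLRC5, an activator of MHC class I genes, was under the filter at 0.298, 0.258 and 0.276 FPKM in shBLACAT3 libraries, against 0.578, 0.495 and 0.462 FPKM in shControl libraries, and was not tested.

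Of 13 tested partners that trim, carry or load the peptides 3 were lower and 0 were higher, beside the same 6.8% and 2.57% of all genes, with a median log2 fold change of -0.26. TAP1, the neighbour of PSMB9, stood at 4.23, 4.05 and 4.10 FPKM in shBLACAT3 libraries, against 11.9, 10.5 and 10.0 FPKM in shControl libraries. Its knockdown mean was 38.3% of the control mean, with a log2 fold change of -1.20 (SE 0.0833, 95% interval -1.40 to -0.999, limma adjusted p = 0.000426). CALR and PDIA3, chaperones of the endoplasmic reticulum that serve many glycoproteins besides class I molecules, had log2 fold changes of -0.48 and -0.39 (limma adjusted p = 0.0148 and 0.0106). CALR missed the threshold without shControl replicate 1, 2 or 3 and PDIA3 without shControl replicate 1 or 2, with adjusted p up to 0.0737 for CALR and 0.0567 for PDIA3.

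Of the 7 tested genes that neighbour immunoproteasome genes on the chromosome only TAP1, already counted above, was called, where 9.37% of all genes tested were. The others named here were picked with their values in view. In the order TAP2, PSMB8, TAP1, PSMB9 on chromosome 6, TAP2, the partner chain of TAP1, stood at 11.9, 11.6 and 12.4 FPKM in shBLACAT3 libraries, against 15.7, 14.0 and 14.0 FPKM in shControl libraries (log2 fold change -0.26, limma adjusted p = 0.0713), the smallest difference of the 4. EMC9 and RNF31, which flank PSME2 on chromosome 14, had overlapping groups (log2 fold changes of -0.03 and -0.06, limma adjusted p = 0.873 and 0.828). IRF9, which follows RNF31, had the log2 fold change of -0.52 given above, with groups that overlapped. PSKH1, near PSMB10 on chromosome 16, had a log2 fold change of -0.19 (limma adjusted p = 0.354).

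Some levels depend on how fragments were assigned. In GENCODE 29 exons of PSMB8 overlap exons of PSMB9 and of the antisense gene PSMB8-AS1 on the other strand, and exons of PSMB9 overlap PSMB8-AS1 on the same strand. PSME1 overlaps EMC9, PSME2 overlaps RNF31 and PSME3 overlaps BECN1 on the other strand, and PSMB10 overlaps an unnamed gene on its own strand. The library kit kept strand, but the strand setting of the quantification is not given in the sources used here, so reads in these overlaps may have been given to either gene. GENCODE 29 lists 13 pseudogenes named for PSMC1, 4 for PSMA6, 3 each for PSMA2 and PSMD10 and 2 for PSME2, whose reads may have been shared with the parent gene. The part of such sharing in the values was not tested.

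**Figure D4:**
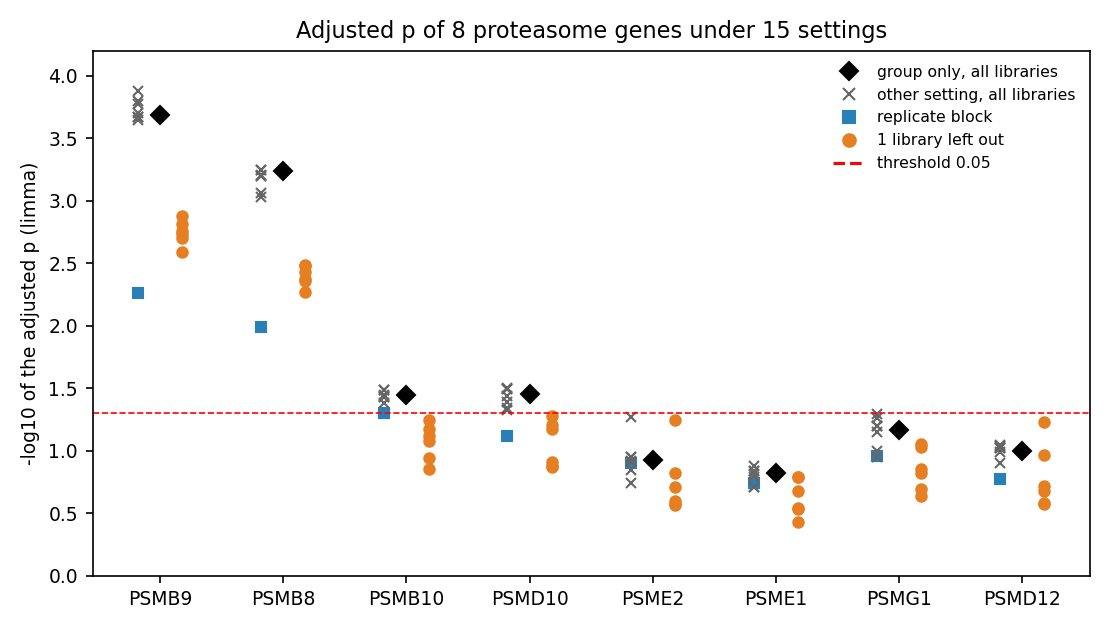
The −log10 of the adjusted p (limma) of 8 of the 46 genes under each of 15 settings, with diamonds for the fit reported in the text, crosses for other settings on all 6 libraries, squares for the replicate block, circles for fits that left out 1 library and a dashed line at the threshold of 0.05. PSMB9 and PSMB8 lie above the line, which means called, in every setting, with adjusted p of at most 0.00255 and 0.00534 when a library is left out, while circles and squares of PSMB10 and PSMD10 lie below it.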

How the data were processed

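Total RNA was extracted with Trizol and sequenced from a strand-keeping kit, per the labels' protocols, in 3 shBLACAT3 and 3 shControl libraries. Cutadapt, HISAT2 2.1.0 and StringTie are named per the submitters' processing notes. The sources used here do not give the genome build, annotation or strand setting. The deposited values were read as FPKM, from StringTie's use and from column sums that differ between libraries, since the header names no unit. Read depth cannot be had from FPKM, so neither a test on counts nor an interval for counting error could be given. In every row the higher group mean was at least 0.5008, so genes with both means under it were not analysed here. Of 11081 rows 11026 were matched to a symbol by identifier in GENCODE 29, and values were added where a symbol had several rows (3 symbols).

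Genes averaging 1 FPKM or more were fitted with limma 3.58.1 (R 4.3.3) on log2(FPKM + 1) (group as the only term, moderated variances that follow a trend in the mean, two-sided tests, Benjamini-Hochberg adjustment over the 10008 genes, threshold 0.05). The fit was tested on simulated data. Ratios of catalytic pairs were compared by exact permutation with SciPy 1.17.1. Alternatives were a replicate block, a pseudocount of 0.1, other filters, median scaling, quantile normalization, no trend, array weights and each library left out. All 46 genes could be named, and from each partner list up to 6 called genes by size of fold change. Some genes of the partner lists are not reported here. The genes and lists were chosen with earlier results of these data known. Motifs were searched in RefSeq promoter windows by exact letters. Of the 46 genes 40 had a window. Figures were drawn with matplotlib 3.10.9.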

Additional observations from a re-analysis of the deposited data

How the results depend on the processing

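PSMB8 and PSMB9 were called in each of the 14 other settings, and the immunoproteasome genes past the threshold numbered 3 in all fits on 6 libraries except the one with the replicate block, and 2 with the block and with any 1 library left out. Under the pseudocount of 0.1, the other filters and the fit without the trend no gene of the 46 changed its direction or its side of the threshold. Sizes of low genes did depend on the pseudocount. At 0.1 the log2 fold change of PSMB9 was -1.88 instead of -1.48. The ratio difference of PSMB9 over PSMB6 was then -1.94 instead of -1.53. The replicate numbers were not taken to pair the libraries: the correlations of deviations between same-numbered libraries were 0.1, 0.117 and 0.0895, and the labels name no shared day, although each shBLACAT3 library correlated best with its own number. With the replicate block 612 genes were called instead of 938, PSMB10 and PSMD10 missed the threshold (adjusted p = 0.0504 and 0.0761), which left 0 of the 41 other proteasome genes called, ZFAND2A missed it (0.0581), and the exact p of the ratios was 0.25, the smallest that 3 pairs allow. Leaving out 1 library gave between 357 calls, with shControl replicate 1 left out, and 1342 with shBLACAT3 replicate 3 left out, 753 of them lower. It left between 0 and 1 calls among the 41 other genes, the 1 being PSMA6. The ratio differences then ran from -1.02 to -0.64 for PSMB8 over PSMB5, from -1.60 to -1.43 for PSMB9 over PSMB6 and from -0.41 to -0.30 for PSMB10 over PSMB7. Small log2 fold changes turned sign: PSMB7 to 0.0030, PSMD14 to 0.0294 and PSMG4 to 0.10 under quantile normalization, PSMD14 to 0.0054 under median scaling and PSMD1 to -0.0073 with array weights. With 1 library left out the ranges were -0.12 to 0.0124 for PSMA1, -0.0686 to 0.0442 for PSMA2, -0.25 to 0.0468 for PSMB3, -0.26 to 0.13 for PSMB5, -0.0253 to 0.11 for PSMB6, -0.0595 to 0.0246 for PSMB7, -0.0111 to 0.0246 for PSMC1, -0.10 to 0.0078 for PSMC4, -0.0162 to 0.0176 for PSMD1, -0.13 to 0.0620 for PSMD13, -0.0435 to 0.0319 for PSMD14, -0.10 to 0.0363 for PSMD4, -0.53 to 0.40 for PSME3, -0.0151 to 0.0863 for PSME4, -0.0851 to 0.38 for PSMF1 and -0.0776 to 0.0608 for PSMG2. IRF7 missed the threshold under quantile normalization and array weights (adjusted p = 0.0503 and 0.0613). The cause of these changes was not tested, and with FPKM alone the precision of low genes such as PSMB9 and PSMG4 cannot be set from read counts.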
